A study of Mus musculus with 8 samples.

Results

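Differentiated surface colonocytes, the mature absorptive cells at the luminal end of the colonic crypt, were followed here through 10 genes chosen by name: Car1, Car2, Car4, Guca2a, Guca2b, Krt20, Vil1, Ceacam20, Alpi and Prdx6. All 10 were present among the 26008 genes of the expression table, and all 10 had a mean of at least 10 normalized counts, the level required of the 19127 genes tested.

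Colon biopsies of 8 bone marrow chimeras were sequenced, 4 that had received Penk-/- and 4 that had received Penk+/+ bone marrow. Penk encodes proenkephalin, the precursor of enkephalin opioid peptides. Recipients were male wild-type C57BL/6JRj mice irradiated at 7 weeks of age, donors were male preproenkephalin-knockout or wild-type mice, and tissue was taken 18 weeks after engraftment, with 1 library per mouse and no pooling. In both groups the colonic epithelium was therefore that of a wild-type host, and only blood-forming cells and their progeny differed in genotype. The part of the colon that was sampled is not given in the labels.

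Colonocytes arise from stem cells at the crypt base, stop dividing as they move up, and build an actin-supported brush border before they are shed at the surface. There they absorb salt and water, exchange bicarbonate and chloride, and release guanylin peptides that act on a guanylate cyclase receptor of the same epithelium. In a bulk biopsy, fewer cells of a type and less RNA per cell cannot be told apart.

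Library totals ranged from 36834313 to 41845410 normalized counts. Penk itself was read at 453 to 616 normalized counts in the Penk-/- chimeras and at 473 to 636 in the Penk+/+ chimeras, so it did not separate the groups in a tissue whose other cells carry the wild-type gene. Pbsn, a gene of male accessory glands, was listed at 0 in 2 libraries and reached 105658 in Penk-/- replicate 3 and 111024 in Penk+/+ replicate 4. Values without these 2 libraries are given below, since Penk-/- replicate 3 was the lowest library for Car1, Car2, Car4, Krt20, Vil1, Ceacam20 and Prdx6, and Penk+/+ replicate 4 the highest for Car2, Car4 and Prdx6.

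Estimates for Vil1, Ceacam20 and Krt20 were below 0 in the Penk-/- chimeras, without passing the test. Vil1, on chromosome 1 (GRCm39, 74448535 to 74475933), encodes villin, which bundles the actin of microvilli. Its normalized counts were 29774, 26726, 21196 and 29316 in the 4 Penk-/- libraries and 32921, 31436, 29042 and 31911 in the 4 Penk+/+ libraries. Penk-/- replicates 1 and 4 lay above Penk+/+ replicate 3 and below the other Penk+/+ libraries. The means were 26753 ± 3940 (SD, n = 4) and 31328 ± 1645 (SD, n = 4), a log2 difference of -0.24 (SE 0.11, exact permutation p = 0.0857, limma adjusted p = 0.534). The 3′ end of Vil1 overlaps Usp37 on the opposite strand, which averaged 1600 normalized counts.

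Ceacam20, on chromosome 7 (19699337 to 19725029), encodes a microvillar adhesion protein. It was read at 11402, 9361, 5925 and 9850 in the Penk-/- libraries and at 14922, 10935, 10540 and 11118 in the Penk+/+ libraries. Penk-/- replicate 3 was far below the rest and Penk+/+ replicate 1 far above, and the groups overlapped through Penk-/- replicate 1. The log2 difference was -0.40 (SE 0.19, exact permutation p = 0.114, limma adjusted p = 0.543), a fold of 0.756 with a 95% confidence interval of 0.560 to 1.02. For Ptprh, the receptor phosphatase that partners Ceacam20 in microvilli, the ratio of Ceacam20 to Ptprh stayed between 1.74 and 2.05 in the 8 libraries. Such a narrow range was not particular to this pair: the ratio of Vil1 to the brush border gene Myo1a stayed between 1.01 and 1.16. Both ratios were picked after the values were seen.

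Krt20, on chromosome 11 (99319227 to 99328985), encodes the keratin of mature intestinal cells. Values were 29242, 18946, 16366 and 25775 in the Penk-/- libraries and 30961, 25901, 23775 and 23318 in the Penk+/+ libraries. Replicates 2 and 3 of the Penk-/- chimeras fell below every Penk+/+ library, while replicates 1 and 4 lay among them. The log2 difference was -0.23 (SE 0.18, exact permutation p = 0.314, limma adjusted p = 0.722).

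**Figure D1:**
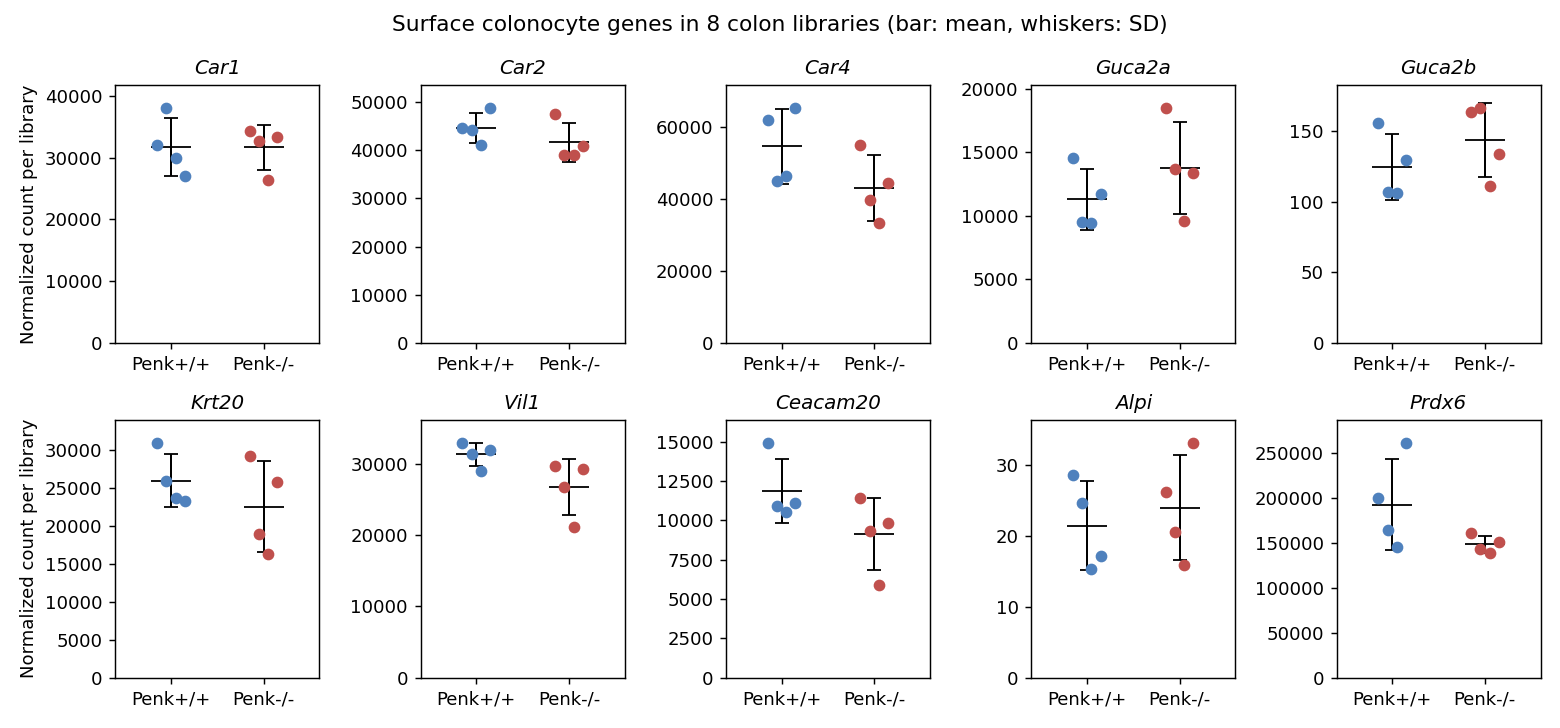
Normalized counts (y axis, starting at 0) of the 10 surface colonocyte genes, 1 point per library, in the Penk+/+ (blue) and Penk-/- (red) chimeras, with the mean as a bar and the SD as whiskers. The groups overlap in all 10 panels, and Penk-/- replicate 3 is the lowest point for Vil1 (21196) and Ceacam20 (5925).

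The 3 carbonic anhydrases, which interconvert carbon dioxide and bicarbonate, gave unequal estimates, none past the test. Car4, on chromosome 11 (84848020 to 84856879), encodes the membrane-anchored enzyme of the apical surface. It was read at 55032, 39610, 33379 and 44357 in the Penk-/- libraries and at 61896, 44982, 46490 and 65183 in the Penk+/+ libraries. All but Penk-/- replicate 1 were below the lowest Penk+/+ library. The log2 difference was -0.35 (SE 0.17, exact permutation p = 0.143, limma adjusted p = 0.568). Car2, the cytosolic enzyme on chromosome 3 (14951317 to 14967568), had 38937 to 47545 normalized counts in the Penk-/- libraries and 40958 to 48652 in the Penk+/+ libraries, a log2 difference of -0.10 (SE 0.09, limma adjusted p = 0.760). Its neighbour Car1 (chromosome 3, 14831269 to 14873459), the other cytosolic enzyme, had means of 31692 ± 3641 and 31763 ± 4658 (SD, n = 4 each), which differed by less than the spread in either group. The 95% interval of the Car1 difference ran from -0.27 to 0.27 on the log2 scale. Of the 10 other carbonic anhydrases tested, 7 were higher and 3 lower, and 1, the cytosolic Car13, had an unadjusted p below 0.05, beside 9.63% of all genes, with a log2 difference of 0.26 (limma adjusted p = 0.506).

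Both guanylin genes had estimates above 0, within the spread between libraries. Guca2a, on chromosome 4 (119494890 to 119496668), encodes guanylin, the main ligand of the guanylate cyclase receptor in the colon. It was read at 18437, 13652, 9563 and 13367 in the Penk-/- libraries and at 14505, 9514, 9439 and 11741 in the Penk+/+ libraries. Penk-/- replicate 1 was the highest of the 8, but Penk-/- replicate 3 lay with the lowest Penk+/+ libraries. The log2 difference was 0.27 (SE 0.20, exact permutation p = 0.314, limma adjusted p = 0.710). Guca2b (chromosome 4, 119513802 to 119516151), which encodes uroguanylin, was much scarcer, at 163.6, 166.0, 111.2 and 133.7 against 155.6, 106.5, 106.3 and 129.5, a log2 difference of 0.20 (SE 0.18, exact permutation p = 0.257, limma adjusted p = 0.762). Across the 8 libraries the log2 levels of these neighbouring genes had a Pearson correlation of 0.926, which is a description over libraries that share depth and tissue makeup.

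The receptor and effectors of guanylin gave no call. Gucy2c, the receptor, had 9016 to 12340 normalized counts in the Penk-/- libraries and 10845 to 13276 in the Penk+/+ libraries, a log2 difference of -0.15 (limma adjusted p = 0.696). Cftr, the chloride channel opened downstream of it, had a log2 difference of 0.21 (limma adjusted p = 0.529), and Slc26a3, the apical chloride and bicarbonate exchanger, one of -0.36 (limma adjusted p = 0.647). Differences were 0.22 for the sodium and hydrogen exchanger Slc9a3, -0.01 for the scaffold Nherf1, 0.25 for the scaffold Nherf2, 0.09 for the kinase Prkg2, 0.02 for the phosphodiesterase Pde5a and 0.10 for the nucleotide exporter Abcc4. Of the 9 pathway genes tested, 6 were higher, 3 lower and 0 had an unadjusted p below 0.05 by limma.

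Alpi and Prdx6 stood at the ends of the range of levels. Alpi (chromosome 1, 87025724 to 87029328), the brush border alkaline phosphatase known mainly from the small intestine, was read at 26.3, 20.6, 16.0 and 33.1 in the Penk-/- libraries and at 28.6, 24.7, 15.3 and 17.1 in the Penk+/+ libraries. The groups covered nearly the same range (log2 difference 0.15, SE 0.30, limma adjusted p = 0.912), and counting error is largest at this level. Prdx6 (chromosome 1, 161051417 to 161079098) encodes a peroxiredoxin that reduces phospholipid hydroperoxides. Its values were 160903, 143609, 138952 and 150996 in the Penk-/- libraries and 200604, 164556, 145413 and 261430 in the Penk+/+ libraries. The Penk+/+ group was widely spread, with its highest value in replicate 4, and the log2 difference was -0.34 (SE 0.18, exact permutation p = 0.114, limma adjusted p = 0.578). The 5 other peroxiredoxins tested had log2 differences between -0.09 and 0.20, 0 with an unadjusted p below 0.05 by limma, the widest for Prdx4. The groups did not overlap for Prdx1, at 16953 to 17278 against 17365 to 17934 normalized counts, as in 5.63% of all genes.

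Across the 10 genes, 0 had an adjusted p below 0.05 by limma, against 0.0% of all genes tested. The study itself reported a few differentially expressed genes by DESeq2, at its own cut-offs of fold change and FDR. The share of 0.0% therefore holds for limma on these log2 values. At an unadjusted p below 0.05 the count was 0 of 10, against 9.63% of all genes, and groups that did not overlap were found in 0 of 10, against 5.63% of all genes. The median log2 difference was -0.17, beside 0.01 over all genes tested, and it was -0.08 without Penk-/- replicate 3 alone. Of the 10, Guca2a, Guca2b and Alpi were above 0, Car1 was at 0.00 and the other 6 were below. Without the 2 libraries with the most Pbsn the differences were -0.14 for Car4, -0.24 for Ceacam20, -0.12 for Vil1, -0.15 for Prdx6 and -0.14 for Krt20, while Guca2a stood at 0.46, with an unadjusted limma p below 0.05, and Guca2b at 0.35. These libraries held extreme values of several of the 10 genes, so leaving them out moves the estimates by itself. With Pbsn as a covariate in all 8 libraries the differences were -0.35 for Car4, -0.40 for Ceacam20, -0.24 for Vil1, -0.34 for Prdx6 and -0.23 for Krt20. With this covariate Guca2a stood at 0.27 and Guca2b at 0.20. The covariate was log2 of Pbsn plus 1. Its mean was 10.45 in the Penk-/- and 10.43 in the Penk+/+ libraries, so it could hardly move the differences. A part of Pbsn in the differences was not tested. Single libraries also moved the estimates. Without Penk-/- replicate 1, Guca2a fell to 0.11, while Car4 stood at -0.47, Ceacam20 at -0.52 and Krt20 at -0.37. Without Penk-/- replicate 3, Guca2a stood at 0.43, Ceacam20 at -0.21, Vil1 at -0.13, Krt20 at -0.09 and Car4 at -0.23. Prdx6 was at -0.19 without Penk+/+ replicate 4 and at -0.47 without Penk+/+ replicate 3. With 4 libraries per group, no two-sided exact permutation p can be below 0.0286.

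**Figure D2:**
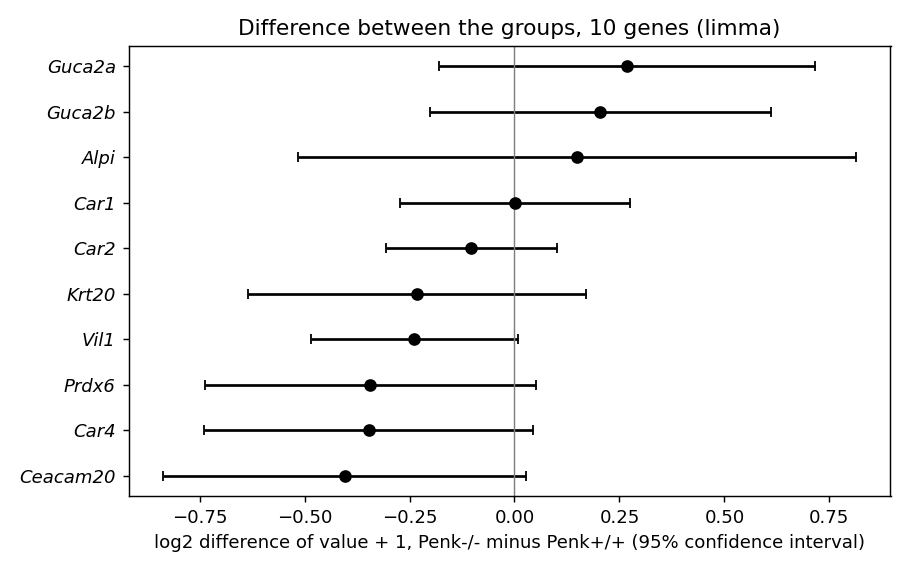
Log2 difference of normalized counts plus 1, Penk-/- minus Penk+/+ (x axis), with the 95% confidence interval from limma, for each of the 10 genes. Every interval includes 0, from Ceacam20 at -0.40 to Guca2a at 0.27.

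Per kilobase of exon, Guca2a had the highest level, at 20700 normalized counts per kilobase over the 8 libraries, followed by Prdx6 at 18400, Car1 at 16700, Car4 at 14300 and Krt20 at 12500. Neighbours among these 5 were not separated: Guca2a exceeded Prdx6 in 5 of 8 libraries, and Prdx6 exceeded Car1 in 3 of 8. Car2 at 9780, Vil1 at 5990, Ceacam20 at 3640, Guca2b at 154 and Alpi at 9.73 followed, and from Car2 down each gene exceeded the next in all 8 libraries. With the longest transcript in place of all exons Prdx6 came first, at 50800, and Guca2a after Prdx6, Car1 and Car4.

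All 10 genes were detected in every library, so none was missing from part of the samples. Hoxb13, a posterior gene of the distal colon, was read at 11777 to 14608 normalized counts, and Hoxb8, an anterior one, at 8.71 to 24.0. These were the highest posterior and the lowest anterior Hox gene of the lists used here. The lists overlapped in level: anterior Hoxb9 averaged 1541, above posterior Hoxd11 at 816 and Hoxd12 at 572. Cyp2c55, known from the proximal colon, was read at 26345 to 55362, and Ang4, of the same list, at 1.1 to 32. No library is labelled by segment, so restriction of any of the 10 genes to the proximal or distal colon was not tested. Over the 8 libraries the posterior Hox score had Pearson correlations of 0.862 with Alpi, 0.855 with Krt20 and 0.805 with Vil1, of 0.778 with Car1, 0.739 with Ceacam20, 0.533 with Car4 and 0.506 with Car2, and of 0.466, 0.292 and 0.277 with Guca2a, Guca2b and Prdx6. Those of the anterior Hox and proximal colon score ran from -0.445 with Alpi to 0.207 with Guca2b. This score was lowest in Penk-/- replicate 4, at -0.53. There Ang4, 1 of its genes, was read at 1.1 normalized counts, against 16.3 to 32 in the other libraries. The part of Ang4 in these correlations was not tested. The posterior Hox score and the pan-epithelium score described below were both lowest in Penk-/- replicate 3, at -0.29 and -0.31. Position and epithelial content were not separated.

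The levels followed a score of epithelial genes to unequal degrees. A pan-epithelium score, the mean centred log2 level of 8 epithelial genes, correlated with Ceacam20 at 0.972, Vil1 at 0.945, Krt20 at 0.932 and Car4 at 0.917, with Car2 at 0.759, Prdx6 at 0.623, Guca2a at 0.549 and Alpi at 0.531, and with Guca2b at 0.424 and Car1 at 0.414 (Pearson, 8 libraries, a description). All 8 epithelial genes were lower in the Penk-/- chimeras by limma's estimate, 0 with an unadjusted p below 0.05, and their summed level was 459642 to 617993 against 565776 to 666635 normalized counts. The part of epithelial content in the differences was not tested. A score built likewise from 6 goblet cell genes correlated with Ceacam20 at 0.808, Guca2a at 0.779, Guca2b at 0.765 and Krt20 at 0.729. With Vil1 it was 0.647, with Alpi 0.63, with Car4 0.567, with Car1 0.506, with Car2 0.296 and with Prdx6 0.161. For Guca2a, Guca2b, Alpi and Car1 these values were above those of the pan-epithelium score. A part of goblet cell content was not tested. Pearson correlations were positive in 44 of the 45 pairs of the 10 genes, with a median of 0.483 and the highest, 0.950, between Ceacam20 and Vil1. After the pan-epithelium score was subtracted the median was -0.01, and the pair Guca2a and Guca2b kept 0.876.

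**Figure D3:**
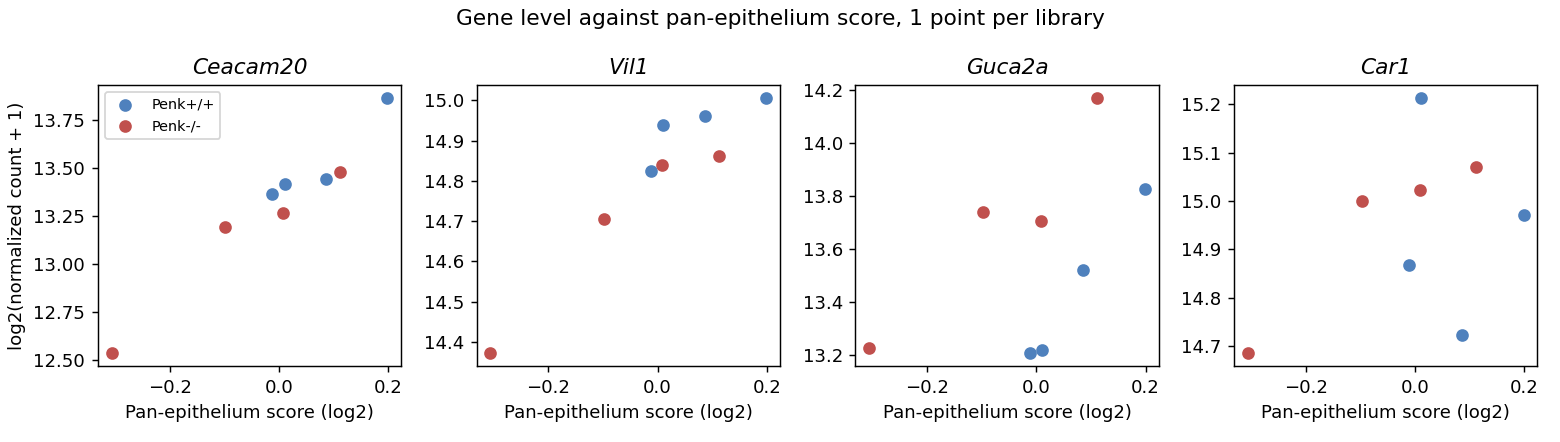
Log2 of normalized counts plus 1 (y axis) of 4 of the 10 genes against the pan-epithelium score (x axis, log2), 1 point per library, Penk+/+ in blue and Penk-/- in red. Ceacam20 (r = 0.972) and Vil1 (r = 0.945) follow the score, whereas Guca2a (r = 0.549) and Car1 (r = 0.414) scatter.

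Sequence before the annotated gene start is shown for Guca2a with Guca2b and Ceacam20 with Vil1, the pairs with the highest correlations in levels. Sequences come from the RefSeq table of build GRCm38.p6, which held 7 of the 10 genes, and each was placed on GRCm39 by 1 exact match. They run 5′ to 3′ on the gene's strand, and capitals mark matches on either strand to TATAAA (the TATA box), to TTTATG (the core of CDX sites), to GTTAAT (part of the HNF1 site), to CAAAGT (part of the HNF4 site) and to CACCC (the core bound by KLF factors), which did not overlap one another.

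Guca2a (chr4:119494679-119494889, plus strand): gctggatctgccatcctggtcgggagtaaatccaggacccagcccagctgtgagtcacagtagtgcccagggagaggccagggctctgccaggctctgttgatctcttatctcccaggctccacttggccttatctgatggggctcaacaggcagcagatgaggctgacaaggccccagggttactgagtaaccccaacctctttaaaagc
Guca2b (chr4:119516152-119516392, minus strand): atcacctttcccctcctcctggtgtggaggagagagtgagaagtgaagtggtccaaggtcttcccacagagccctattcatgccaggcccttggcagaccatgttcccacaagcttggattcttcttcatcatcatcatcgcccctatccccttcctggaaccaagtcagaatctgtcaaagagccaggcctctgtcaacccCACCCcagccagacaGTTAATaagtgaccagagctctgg
Ceacam20 (chr7:19699087-19699336, plus strand): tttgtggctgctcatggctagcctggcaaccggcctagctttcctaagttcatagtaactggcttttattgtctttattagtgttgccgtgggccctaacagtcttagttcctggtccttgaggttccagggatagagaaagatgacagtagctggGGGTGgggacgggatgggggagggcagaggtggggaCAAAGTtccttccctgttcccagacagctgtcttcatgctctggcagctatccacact
Vil1 (chr1:74448293-74448534, plus strand): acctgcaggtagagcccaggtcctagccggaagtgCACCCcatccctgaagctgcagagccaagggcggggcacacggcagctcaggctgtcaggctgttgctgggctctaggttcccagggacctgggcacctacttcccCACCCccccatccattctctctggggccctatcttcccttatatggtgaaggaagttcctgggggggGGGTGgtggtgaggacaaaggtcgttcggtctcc

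In the 250 bases before the RefSeq start, TATAAA was found in 2 of the 7 genes (Krt20 and Alpi) and in 13.0% of 27025 promoters, TTTATG in 0 of 7 and 11.1%, and GTTAAT in 1 of 7 (Guca2b) and 6.52%. CAAAGT was found in 2 of 7 (Ceacam20 and Alpi) and 12.5%, and CACCC in 6 of 7 and 51.3%. The Guca2a stretch held none of the 5.

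Other genes of the surface and the crypt were described from lists chosen by function. Among 9 brush border genes all 9 had lower estimates in the Penk-/- chimeras, beside 48.9% of all genes tested, and 2 of 9 had an unadjusted p below 0.05, beside 9.63% of all genes. The genes of a list share cells and libraries, so these counts are a description. The 2 were Eps8, a microvillar actin capping protein, with a log2 difference of -0.46 (limma adjusted p = 0.408), and Myo1a, the brush border myosin, with -0.30 (limma adjusted p = 0.433). Of 7 other surface colonocyte genes tested, 6 were lower, 1 of them with an unadjusted p below 0.05. This was Slc51b, a subunit of the bile acid exporter, with -0.44 (limma adjusted p = 0.466).

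Crypt base and cycling genes lay the other way, all 6 with higher estimates, beside 9780 of the 19127 genes tested. Of these 6, 1 had an unadjusted p below 0.05 by limma, beside 9.63% of all genes. Ascl2, a stem cell transcription factor, had 181 to 211 normalized counts in the Penk-/- libraries and 97.1 to 147 in the Penk+/+ libraries, with no overlap, as in 5.63% of all genes, and a log2 difference of 0.67 (limma adjusted p = 0.339). Over the 8 libraries the crypt score had a Pearson correlation of -0.901 with Car4, -0.829 with Prdx6, -0.812 with Ceacam20, -0.805 with Vil1, -0.795 with Car2 and -0.767 with Krt20. It was nearer 0 for Alpi at -0.348, Guca2a at -0.268, Guca2b at -0.175 and Car1 at -0.118. Correlations with the smooth muscle score were negative as well, from -0.855 with Car2, -0.737 with Car4 and -0.724 with Krt20 to -0.23 with Car1. Crypt and muscle content were not separated. Of 6 differentiation factors 5 had higher estimates, and the exception was Hnf4g, a factor of enterocyte genes, at 2319 to 3091 against 3104 to 3720 (log2 difference -0.29, limma adjusted p = 0.425). Its groups did not overlap, as in 5.63% of all genes.

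The other lists are given by their counts and by the gene with the smallest p, with its log2 difference. Estimates were lower for 5 of 6 goblet cell genes, with Spink4 (0.26) the exception, and higher for 3 of 5 leukocyte genes, with the T cell gene Cd3e (-0.80) among the other two. They were lower for 5 of 6 CEACAM genes and Ptprh (Ptprh -0.36), for all 5 keratins (Krt8 -0.15), for all 5 small intestinal genes (the retinol binding protein Rbp2 -0.45), for 6 of 7 red cell genes (Hba-a1 -0.38) and for all 8 epithelial genes (Epcam -0.18). They were higher for 4 of 6 villin and gelsolin family genes (the actin capping protein Capg 0.22), for 5 of 8 smooth muscle genes (Acta2 0.17), for 4 of 6 anterior Hox and proximal colon genes (Hoxb6 0.28), for 1 of 5 posterior Hox genes (Hoxd11 -0.11), for 2 of 3 accessory gland genes (Tgm4 0.36) and for Alpl (0.35), the other alkaline phosphatase tested. Capg and Rbp2 had an unadjusted p below 0.05 by limma, and the adjusted p of these 13 genes ran from 0.501 to 0.980.

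The most similar genes by correlation with the mean centred log2 level of the 10 were Slc25a5 and Slc22a23, both at 0.994 over 8 libraries, then Crybg1 at 0.990, and Lrrc1 and Itpkc at 0.988.

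Guanylin was also set against the other surface genes of the same library. Such ratios do not depend on the scaling of libraries, but they were computed after the values had been seen: 11 ratios were looked at once Guca2a was seen to lie opposite to Car4 and Ceacam20, and then all 45 pairs of the 10 genes. They are therefore a description. The ratio of Guca2a to Car4 was 0.335, 0.345, 0.287 and 0.301 in the Penk-/- libraries and 0.234, 0.212, 0.203 and 0.180 in the Penk+/+ libraries. That of Guca2a to Ceacam20 was 1.62, 1.46, 1.61 and 1.36 against 0.972, 0.870, 0.896 and 1.06. Every Penk-/- library was above every Penk+/+ library in both, by a fold of 1.53 and 1.59 on average.

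Each of the 45 ratios was written in the direction that was higher on average in the Penk-/- libraries, so the values themselves set the numerator. Groups did not overlap for 7 of the 45 ratios, and all 7 held a guanylin gene: 4 with Guca2a (over Car4, Ceacam20, Krt20 and Vil1) and 3 with Guca2b (over Car4, Ceacam20 and Prdx6). When each of the 10 genes was divided in turn by the 19048 other tested genes above 0 in every library, the groups did not overlap for 4.97% of genes with Guca2a and 5.64% with Guca2b. The shares were 1.94% with Car1, 5.2% with Car2, 4.91% with Car4, 1.7% with Krt20, 15.9% with Vil1, 13.7% with Ceacam20, 1.05% with Alpi and 12.2% with Prdx6. The exact two-sided permutation p of each of the 7 was 0.0286, the smallest that 4 against 4 libraries allow, and after adjustment over the 45 pairs it was 0.184, so none passed. The pairs share genes and were formed after the values were seen, so these p-values are a description too. Guca2a relative to its receptor Gucy2c was 1.06 to 1.49 against 0.844 to 1.09, with overlap, and Guca2b relative to Gucy2c was 0.0121 to 0.0151 against 0.0095 to 0.0117, without overlap. These ratios too were picked after the values were seen, among 6 with genes outside the 10.

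**Figure D4:**
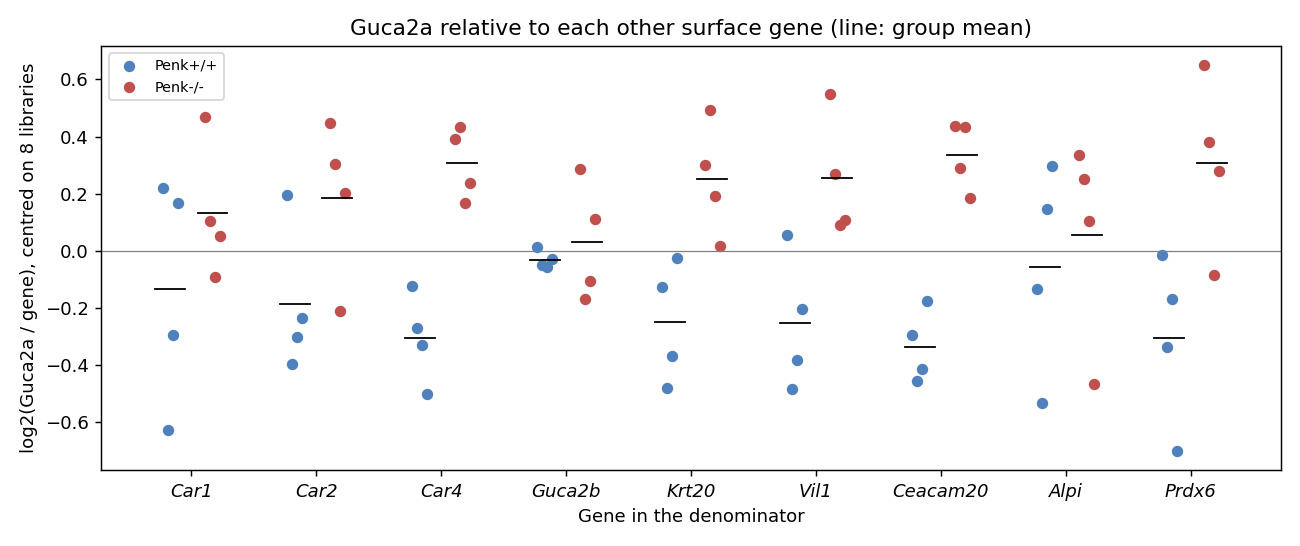
Log2 ratio of Guca2a to each of the other 9 genes (x axis), centred on the 8 libraries (y axis, log2), 1 point per library, Penk+/+ in blue, Penk-/- in red, with the group mean as a line. The groups do not overlap for Car4, Krt20, Vil1 and Ceacam20, and overlap for the other 5 genes.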

How the data were processed

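Poly-A RNA of frozen colon biopsies was sequenced as stranded paired-end libraries. Per the labels the authors used FastQC, STAR 2.7.8a on GRCm39 and DESeq2 1.30.0, and the deposited signal values are counts divided by DESeq2 size factors. The strand setting of the counting is not given in the sources used here. Ensembl identifiers were named with GENCODE M39 (25776 of 26008 matched). Genes with a mean of at least 10 were tested on log2(value + 1), a scale that understates changes of low genes, with limma 3.58.1 (R 4.3.3, trended variance, Benjamini-Hochberg adjustment over 19127 genes). The test was tested on simulated data first. In each library the values were whole multiples of the smallest one, but that this step is a single read was not established. Count tests by edgeR were therefore not run. The p-values measure the spread between mice. Replicate numbers did not pair the libraries (correlations of deviations 0.145, -0.044, -0.321 and -0.162). Members, gene lists and named genes were chosen with earlier results of these data known. Named were the members, the guanylin pathway genes, from each other list the gene with the smallest p and those with an unadjusted p below 0.05, genes of the marker lists, and the 5 genes most correlated with the members; genes set in ratios were picked after their values were seen. Ratios, values relative to epithelium and the promoters shown were added after the values were seen.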

Additional observations from a re-analysis of the deposited data

Results flagged for a closer look

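Ceacam20 in Penk+/+ replicate 1 lay far above the other Penk+/+ libraries, with a gap of 0.868 of the group's range, past Dixon's 95% limit for 4 samples. The score of 6 differentiation factors in Penk-/- replicate 3 lay far below its group, with a gap of 0.852 of the range. In all 60 groups of 4 were examined and 2 passed the limit, where chance alone passes about 1 in 20, or 3 of 60.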

How the results depend on the processing

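Under 18 alternatives (8 that left out 1 library each and 10 others), 0 of the 10 genes had an adjusted p below 0.05, and the lowest was 0.185. Of 179 values, 173 kept their direction and side of the threshold and 6 reversed. Car1 was -0.04, -0.02 and -0.03 without Penk-/- replicates 1, 2 and 4 and -0.02 and -0.074 without Penk+/+ replicates 3 and 4, and Alpi was -0.017 without Penk-/- replicate 4; leaving out 1 library, Car1 ran from -0.074 to 0.0904, Alpi from -0.017 to 0.32, Guca2a from 0.11 to 0.43, Guca2b from 0.13 to 0.32, Car2 from -0.17 to -0.06, Car4 from -0.47 to -0.23, Ceacam20 from -0.52 to -0.21, Vil1 from -0.29 to -0.13, Krt20 from -0.37 to -0.09 and Prdx6 from -0.47 to -0.19. Genes with an adjusted p below 0.05 numbered 1 with quantile normalization, 1 with the replicate block, 1 with an epithelium minus muscle covariate, and 0 to 6 when a library was left out (6 without Penk-/- replicate 1). The replicate block gave 2938 genes with an unadjusted p below 0.05, and leaving out a library 1383 to 2222. In the main fit 0 of the 10 genes had an unadjusted p below 0.05, beside 1842 of the 19127 genes tested (9.63%). With the block 5 of the 10 did, beside 2938 of all genes. The count was 2 with quantile normalization, beside 1892, and 2 with the covariate, beside 2241. Without a filter it was 1, beside 2157, a count drawn from the unfiltered table of 26008 genes. Without the 2 libraries with the most Pbsn it was 1, beside 1734. When a library was left out it was 0 to 4, with 4 without Penk-/- replicate 1, beside 2222. With the covariate Guca2a was 0.42 (limma adjusted p = 0.238), and without Penk-/- replicate 1 it was 0.11. The median of the 10 log2 differences was -0.06 with quantile normalization, -0.08 with the covariate, -0.08 without the 2 libraries and -0.23 to -0.08 when a library was left out. Groups overlapped for all 10 genes in the full data, but not for 0 to 3 of them when a library was left out: 3 (Car2, Car4 and Ceacam20) without Penk-/- replicate 1, where 2302 of all genes tested did not overlap, and 2 (Vil1 and Prdx6) without Penk+/+ replicate 3, where 1826 did not. The cause was not tested. The replicate numbers share no animal, and the labels tie no batch or cage to them. What the block stands for is therefore not known. DESeq2 and edgeR were not run.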
